A study of Mus musculus with 4 samples.

Results

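The stefin A cluster of the mouse is a group of related genes on chromosome 16, some of them near-identical, and 5 of its members, Stfa1, Stfa2, Stfa2l1, BC100530 and Gm5483, were followed here through the leukocytes of the injured gut. The members were taken by name, as 5 of the 16308 genes in the count tables. The family was selected on its measured levels in these same libraries, so its levels and ratios are given as a description, with no test. CD45+ leukocytes had been isolated from the muscularis, the outer muscle coat, of the small intestine and profiled by droplet-based single cell RNA sequencing. There were 4 libraries, 1 per group, from WT (C57BL/6J) and CCR2 KO (Ccr2-/-; B6.129S4-Ccr2tm1Ifc/J) mice of 12 weeks, each at 24 h or 72 h after intestinal manipulation, the surgical handling that inflames the muscularis. All groups had therefore undergone surgery, and each library pooled several mice, so differences between mice were not measured. The knockout removes CCR2, the chemokine receptor with which monocytes leave the bone marrow, from all cells of the mouse.

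Stefins are small intracellular inhibitors of papain-like cysteine proteases such as cathepsins B, L, S and H. They occupy the active site cleft of the protease without being cleaved like a substrate. In the mouse the stefin A gene has been multiplied into a tandem cluster, and transcripts of several copies are known from maturing neutrophils and from skin. Neutrophils are short-lived granulocytes that make most of their granule proteins in the bone marrow and enter inflamed tissue with this RNA partly lost.

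On GRCm38, the 5 genes lie between positions 36156811 and 36408457 of chromosome 16, a stretch of 252 kb. Stfa2l1 (ENSMUSG00000059657.5, 36156811 to 36161953), Gm5483 (ENSMUSG00000079597.2, 36184212 to 36188111) and Stfa1 (ENSMUSG00000071562.6, 36276951 to 36285373) are on the plus strand. BC100530 (ENSMUSG00000071561.2, 36359382 to 36367748) and Stfa2 (ENSMUSG00000022902.8, 36403992 to 36408457) are on the minus strand. Gm5483 is named Cstdc4 and BC100530 Cstdc5 in RefSeq. Each is annotated in GENCODE vM21 with 3 exons in the transcript used here, and the mature transcripts are short, from 414 bases for Gm5483 to 619 bases for BC100530. The last 90 coding bases of each gene, up to and including the stop codon, are shown because a 3' library reads this end of the mRNA and because they show how alike the members are. Capitals mark bases that differ from Gm5483.
Gm5483: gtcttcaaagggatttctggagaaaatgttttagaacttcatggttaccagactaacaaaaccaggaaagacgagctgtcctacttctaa
Stfa1: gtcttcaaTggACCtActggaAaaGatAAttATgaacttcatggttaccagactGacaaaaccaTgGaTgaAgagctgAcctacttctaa
BC100530: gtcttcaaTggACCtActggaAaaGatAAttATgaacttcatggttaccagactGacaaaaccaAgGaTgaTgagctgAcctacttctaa
Stfa2: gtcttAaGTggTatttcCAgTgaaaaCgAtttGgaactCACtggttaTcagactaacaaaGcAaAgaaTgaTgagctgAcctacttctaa
Stfa2l1: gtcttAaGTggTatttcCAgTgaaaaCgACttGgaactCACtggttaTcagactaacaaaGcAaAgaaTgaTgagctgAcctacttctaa

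These ends fall into pairs. Stfa2 and Stfa2l1 were the same at 89 of the 90 bases, and Stfa1 and BC100530 at 88 of 90, whereas Gm5483 differed from the other 4 at 17 to 21 bases. Over the whole coding sequence, Stfa2 and Stfa2l1 were 96.5% identical and the other 9 pairs of members 56.5% to 80.6%, the lowest values being those of Stfa1, whose annotated reading frame is longer. The closest gene to Gm5483 was no member but its neighbour 2010005H15Rik, at 96.9%. Of all windows of 90 bases in a transcript, 15.4% for Gm5483, 16.6% for BC100530, 4.24% for Stfa1, 2.42% for Stfa2l1 and 2.09% for Stfa2 occurred without a mismatch in the transcript of another gene. With windows of 50 bases the shares were 15.9% to 35.6%. Reads from such windows cannot be assigned to 1 gene, and how the authors' counting divided or dropped them is not given in the sources used here. The level of each member is therefore uncertain, and the sum over the 5 members (the stefin sum) is given beside it. The sum still misses reads shared with genes outside the 5, and also those shared among the 5 if the counting dropped them.

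The promoters were alike as well, and are shown because the members shared 1 cell class. RefSeq promoters of 250 bases before to 50 after the annotated start (GRCm38.p6) were found for 5 of 5 members. Pairs of members were 67.9% (BC100530 and Gm5483) to 90.5% (Stfa2 and Stfa2l1) identical over this stretch. The longest run of bases that all 5 contain is marked in capitals, with the 40 bases before it and the 8 after it, in the direction of transcription.
Stfa2l1, chr16:36156735-36156795, plus strand: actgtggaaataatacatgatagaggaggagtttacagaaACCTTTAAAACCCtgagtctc
Gm5483, chr16:36184140-36184200, plus strand: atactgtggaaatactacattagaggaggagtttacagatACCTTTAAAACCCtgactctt
Stfa1, chr16:36277075-36277135, plus strand: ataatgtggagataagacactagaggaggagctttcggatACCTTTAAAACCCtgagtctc
BC100530, chr16:36367562-36367622, minus strand: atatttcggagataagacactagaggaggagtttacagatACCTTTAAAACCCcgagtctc
Stfa2, chr16:36408375-36408435, minus strand: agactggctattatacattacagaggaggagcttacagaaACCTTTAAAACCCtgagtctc

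The run of 13 bases began 32 to 36 bases before the annotated start in 4 members and 12 bases before it in BC100530. It occurred on either strand in 9 of 32851 promoters (0.0274%), namely those of the 5 members and of Stfa3, Csta3, Cstdc3 and Gm7260. A TATAAA was in 0 of 5 members and in 13.6% of all promoters. The C/EBP-type TTGCNNAA was in the promoters of Stfa1 and BC100530 and in 10.8% of all promoters. The PU.1-type GAGGAAG was in those of Stfa1, BC100530 and Gm5483 and in 13.6% of all, and the AP-1-type TGANTCA in 0 of 5 and in 7.81%. Both strands were searched. These matches describe letters in a window and say nothing about which factor binds.

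Cells were assigned to classes by the share of fixed marker genes they contained, with none of the stefin genes among the markers. Of 5811 cells, 2439 were neutrophil-gated, with 314 in WT and 1342 in CCR2 KO at 24 h, and 194 and 589 at 72 h. All 14 neutrophil markers reached 20 CPM in each library. Only 31 of the 2439 cells lay near the edge of the gate, and 2421 were also in a Leiden cluster named neutrophil from the same markers. CPM denotes UMIs (unique molecular identifiers, which count RNA molecules) of a gene per 1000000 UMIs of the class in a library. A 3' library counts each molecule once from its end, so levels were not divided by length. Libraries held 9736725 to 21206308 UMIs, and neutrophil-gated cells a median of 2092 to 3376 UMIs. Ccr2 was at 758 and 1067 CPM in monocyte/macrophage-gated cells of WT at 24 h and 72 h and at 93.4 and 86.8 CPM in CCR2 KO. With 1 library per group, all intervals are 95% intervals that cover counting error only. Of all cell barcodes, 4 occurred in more than 1 library. Where 4 values follow each other, they belong to WT, then CCR2 KO of the early time, then WT, then CCR2 KO of the late time (library order).

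Stefin transcripts were almost confined to neutrophils. Of 15337 stefin UMIs in the series, 15184 (99.0%, exact binomial interval 98.8 to 99.2) were in neutrophil-gated cells, which held 13.6% of all UMIs. By library the share was 99.0% in WT and 99.7% in CCR2 KO at 24 h, and 92.3% and 99.3% at 72 h. In neutrophil-gated cells the stefin sum at 24 h was 1689 CPM in WT (exact Poisson interval 1604 to 1778) and 1112 CPM in CCR2 KO (1081 to 1144). At 72 h WT had 1599 CPM (1490 to 1713) and CCR2 KO 3575 CPM (3498 to 3653). The level in CCR2 KO at 72 h was thus the highest and that in CCR2 KO at 24 h the lowest, while both WT libraries lay between them with overlapping intervals.

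**Figure D1:**
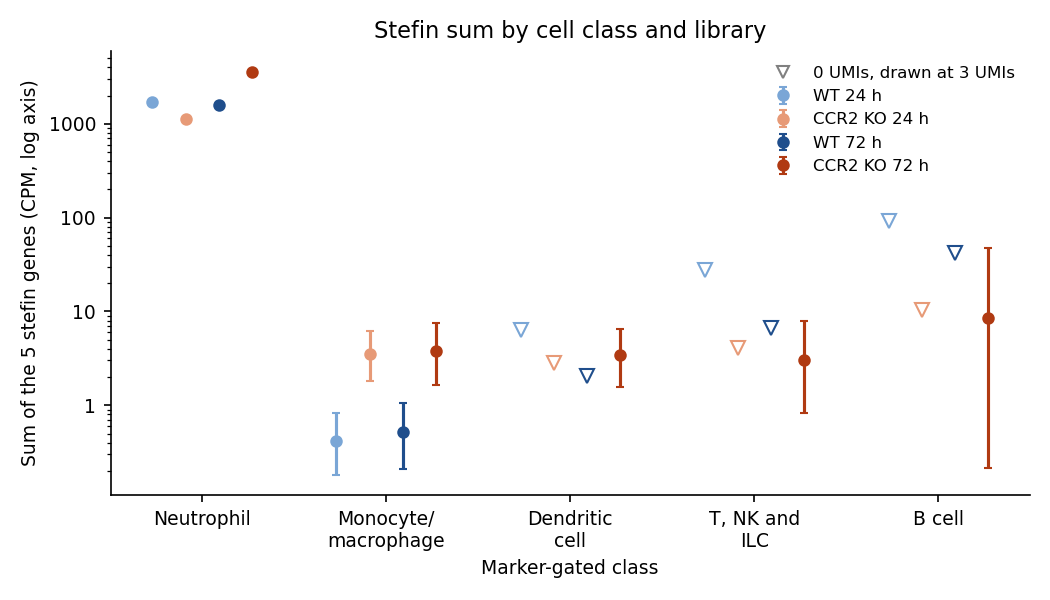
Sum of the 5 stefin genes in CPM (log axis) by marker-gated class, 1 point per library with its 95% Poisson interval. Open triangles mark classes with 0 stefin UMIs, drawn at the level of 3 UMIs. The 4 neutrophil points lie between 1112 and 3575 CPM, and no other plotted class with a stefin UMI exceeds 8.53 CPM (ungated cells are not plotted).

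Monocyte/macrophage-gated cells, at 2509 the largest class, held 35 stefin UMIs in 27 cells. This gave 0.417 CPM in WT and 3.52 CPM in CCR2 KO at 24 h, and 0.519 and 3.78 CPM at 72 h. Dendritic cells had 0 UMIs in 3 libraries, which allows up to 6.40, 2.84 and 2.06 CPM (3 UMIs), and 3.42 CPM (9 UMIs) in CCR2 KO at 72 h. T cells, NK cells and innate lymphoid cells as 1 class had 0 UMIs in 3 libraries and 4 UMIs, or 3.06 CPM, in CCR2 KO at 72 h. B cells held 1 UMI in all. Plasma cells (2), mast cells or basophils (5) and non-immune cells (3) held 0 stefin UMIs, at 60249, 37348 and 3544 UMIs of depth. Over all cells outside the neutrophil gate, 28 of 459 had a stefin UMI in CCR2 KO at 72 h, 9 of 1360 in WT at 24 h, 8 of 432 in CCR2 KO at 24 h and 10 of 1121 in WT at 72 h. Set against S100a8, an abundant neutrophil transcript, these cells held 2.07, 56.4, 65.1 and 83.8 stefin UMIs per 1000 S100a8 UMIs in library order, and neutrophil-gated cells 43.7, 40.1, 66.9 and 82.3. Of the stefin UMIs outside the gate, 60 of 67 in WT and 34 of 56 in CCR2 KO at 72 h were in ungated cells. In monocyte/macrophage-gated cells the ratio was 1.39 (0.601 to 2.74), 98.4 (50.8 to 172), 29.8 (12.0 to 61.4) and 92.0 (39.7 to 181), and overlapped the interval of neutrophils only in CCR2 KO at 72 h. The part of free neutrophil RNA in these low counts was not tested beyond these ratios.

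The remaining 104 UMIs outside the neutrophil gate were in 14 of the 212 cells that no class took. Of these, 60 UMIs were in 4 cells of WT at 72 h, where the highest cell held 33 stefin UMIs, 13 of the 14 neutrophil markers and 278 S100a8 UMIs at a depth of 24162 UMIs. In CCR2 KO at 72 h, 1 such cell held 28 of 34 UMIs with 13 neutrophil markers. The ungated stefin UMIs thus lay mostly in a few deep cells that carried neutrophil markers. Whether these were mixed droplets was not tested.

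To set shares of cells against a common depth, each cell was thinned at random to 1000 UMIs, which left out 8 to 31 neutrophil-gated cells per library. A stefin UMI was then found in 33.6% of the neutrophil-gated cells of WT (exact binomial interval 28.2 to 39.3) and 23.3% of those of CCR2 KO (21.0 to 25.6) at 24 h. The shares at 72 h were 26.9% (20.7 to 33.9) for WT and 27.8% (24.1 to 31.7) for CCR2 KO. In T, NK and innate lymphoid cells, which served as background with median depths of 4824 to 7370 UMIs, it was 0% in each library, with 19 to 152 cells. Zero of 19 cells in WT at 24 h allows a share of up to 15.8% and 0 of 152 in CCR2 KO at 72 h one of up to 1.97%. Without thinning, 37.3%, 30.8%, 33.0% and 34.6% of neutrophil-gated cells, in library order, had a stefin UMI.

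Gm5483 supplied the largest share of the stefin RNA in each library. Its levels in neutrophil-gated cells, in library order, were 983 CPM (918 to 1051), 735 CPM (710 to 761), 756 CPM (682 to 835) and 2278 CPM (2216 to 2340). The CCR2 KO library at 72 h stood apart from the other 3. Stfa2l1 followed at 575 CPM (525 to 627) and 354 CPM (336 to 372) at 24 h, and 690 CPM (620 to 767) and 957 CPM (918 to 998) at 72 h, in the same order of genotypes. For this gene the 4 intervals did not overlap except those of WT at the 2 times, which met between 620 and 627.

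The other members were sparse. Stfa1 had 49.4 CPM (35.8 to 66.6), 18.4 CPM (14.5 to 22.9), 87.1 CPM (63.3 to 117) and 166 CPM (150 to 184). BC100530 was at 25.3 CPM (15.8 to 38.3) and 2.59 CPM (1.29 to 4.63) at 24 h, and at 41.5 CPM (25.7 to 63.5) and 104 CPM (90.8 to 118) at 72 h. Stfa2, the gene that is almost a copy of Stfa2l1, was at 57.5 CPM (42.6 to 75.8) and 2.12 CPM (0.969 to 4.02) at 24 h, and at 23.7 CPM (12.3 to 41.5) and 70.3 CPM (59.9 to 82.1) at 72 h. In each case the lowest library was CCR2 KO at 24 h and the highest CCR2 KO at 72 h, although for Stfa2 the interval of the latter overlapped that of WT at 24 h. These values rest on few cells. The 50 Stfa2 UMIs of WT at 24 h lay in 6 of 314 cells, with 33 in 1 of them, whereas the 9 UMIs of CCR2 KO at 24 h lay in 9 of 1342 cells with 1 each. Of the 22 BC100530 UMIs of WT at 24 h, 18 were in 1 of 4 cells.

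**Figure D2:**
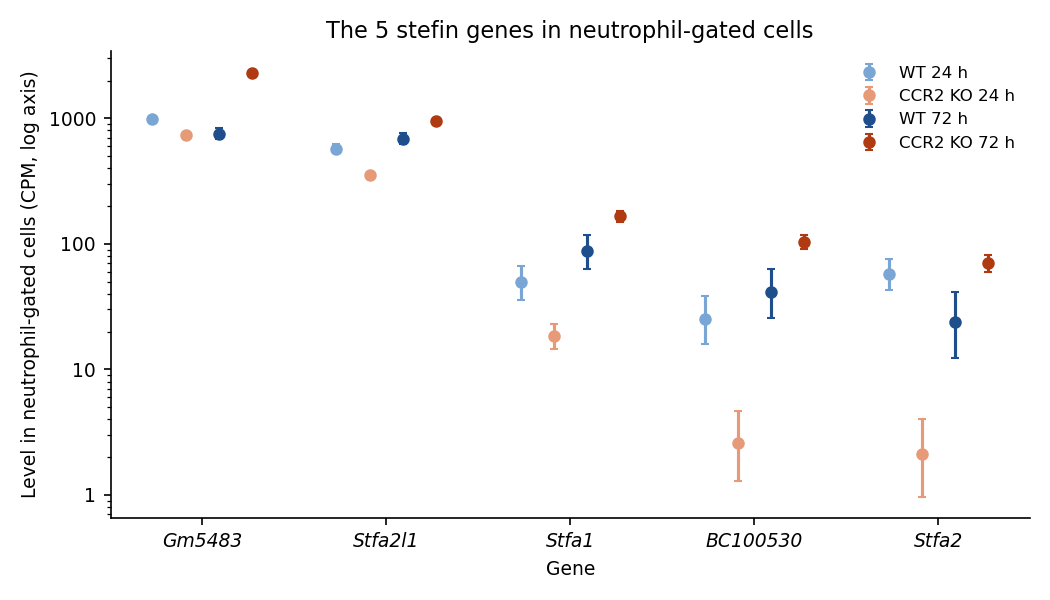
Level of each stefin gene in neutrophil-gated cells, in CPM on a log axis, with 95% Poisson intervals and 1 point per library. Gm5483 and Stfa2l1 are at 354 CPM or more in each library, and Stfa1, BC100530 and Stfa2 are at 2.12 to 166 CPM.

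The make-up of the sum shifted between libraries. Of the stefin UMIs of neutrophils, Gm5483 made up 58.2% (exact binomial interval 55.6 to 60.7), 66.1% (64.7 to 67.5), 47.3% (43.8 to 50.8) and 63.7% (62.7 to 64.7) in library order. The share of Stfa2l1 was 34.0%, 31.8%, 43.2% and 26.8%. WT at 72 h was the library in which both genes came closest to equal shares. Stfa1, Stfa2 and BC100530 together made up the small rest, with single shares between 0.191% and 5.45%.

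The first comparison set the neutrophil-gated cells of CCR2 KO against those of WT at 24 h. The stefin sum was lower in CCR2 KO, with a log2 ratio to WT of -0.60 (-0.69 to -0.52). Each of the 5 members was lower: Gm5483 by a log2 ratio of -0.42 (-0.53 to -0.31), Stfa2l1 of -0.70 (-0.85 to -0.55), Stfa1 of -1.43 (-1.98 to -0.86), BC100530 of -3.29 (-4.48 to -2.18) and Stfa2 of -4.76 (-5.97 to -3.72). After thinning to 1000 UMIs per cell BC100530 had -0.58, and without the highest 1% of cells Stfa2 had -3.38. Among all genes with at least 20 CPM in either library, 248 of 4592 (5.40%) were lower by a log2 ratio of 1 or more, computed with 1 CPM added, and 3 of the 5 members were past this limit. Since the family was chosen with these ratios known, nothing is read from that count. The 2 abundant members did not reach this fold, and the 3 past it were the sparse ones. Thinned to 1000 UMIs per cell, Stfa1 had a log2 ratio of 0.29, the opposite sign. In neutrophil-gated cells of WT and CCR2 KO at 24 h, 10 and 4 of 14 monocyte/macrophage markers reached 20 CPM, with a summed level of 881 and 377 CPM, and without cells that held 3 or more of these markers the log2 ratio of the stefin sum was -0.76.

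At 72 h the order was the opposite. The stefin sum was higher in CCR2 KO, with a log2 ratio of 1.16 (1.06 to 1.27), which is 2.24-fold. Gm5483 had a log2 ratio of 1.59 (1.44 to 1.75), Stfa2 of 1.57 (0.72 to 2.55), BC100530 of 1.32 (0.67 to 2.04), Stfa1 of 0.94 (0.48 to 1.42) and Stfa2l1 of 0.47 (0.31 to 0.64). All 5 were higher, and the abundant pair differed between them: Gm5483 was 3.01-fold and Stfa2l1 1.39-fold higher. Of all genes tested, 137 of 5488 (2.50%) were higher by a log2 ratio of 1 or more, and 3 of the 5 members were past it, by the same values that chose the family. Thinning turned Stfa1 here too, to -0.15, and left Stfa2l1 at 0.039. Without Siglecf-positive cells Stfa2l1 had 0.81, Stfa2 2.83 and BC100530 3.43. Monocyte/macrophage markers were summed to 1122 CPM in the neutrophil gate of WT and 366 CPM in that of CCR2 KO, with 7 and 4 of 14 at 20 CPM or more, and without cells that held 3 or more of them the log2 ratio was 1.14. The calprotectin genes, which encode the most abundant proteins of the neutrophil cytosol, had the signs of the stefins at both times, with log2 ratios of -0.48 and 0.86 for S100a8 and of -0.68 and 0.31 for S100a9. At 24 h the ratio of S100a9 was larger in size than that of the stefin sum, and at 72 h both were smaller. Csf3r, the receptor for granulocyte colony-stimulating factor, was at -0.014 (-0.14 to 0.11).

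**Figure D3:**
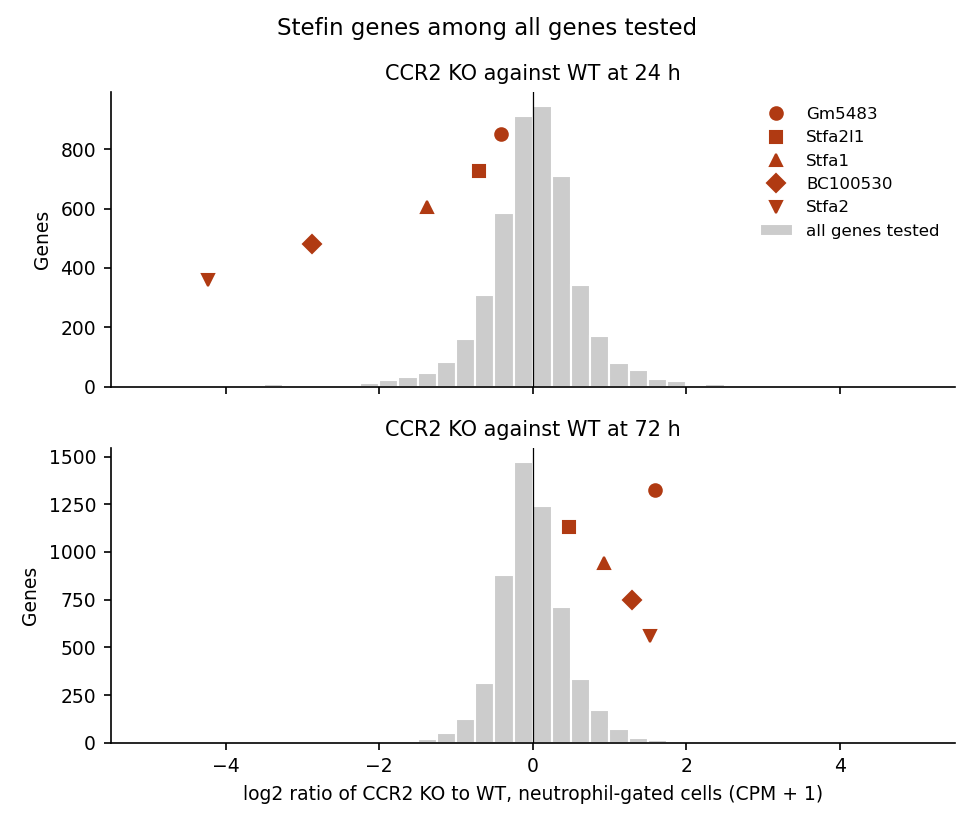
Histograms of the log2 ratio of CCR2 KO to WT in neutrophil-gated cells over all genes tested (grey bars, number of genes, 1 CPM added), at 24 h (4592 genes) and 72 h (5488 genes). Red symbols give the 5 stefin genes at arbitrary heights, all left of 0 at 24 h and all right of 0 at 72 h.

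Over time the ratios of both genotypes lay apart. In WT the stefin sum at 72 h against 24 h had a log2 ratio of -0.080 (-0.21 to 0.045), and the members did not move together. Gm5483 was at -0.38 (-0.56 to -0.20), Stfa2l1 at 0.27 (0.064 to 0.47), Stfa1 at 0.82 (0.18 to 1.46), BC100530 at 0.72 (-0.22 to 1.65) and Stfa2 at -1.28 (-2.32 to -0.35). Only Stfa2 was past a log2 ratio of 1 in either direction, as were 25.1% of 5288 genes. In CCR2 KO the sum had a log2 ratio of 1.68 (1.63 to 1.74), or 3.21-fold, with Stfa2l1 at 1.44, Gm5483 at 1.63, Stfa1 at 3.18, Stfa2 at 5.05 and BC100530 at 5.32. All 5 were past a log2 ratio of 1, as were 21.1% of 5329 genes in that direction. The median over the genes tested was 0.44 in WT and 0.39 in CCR2 KO, and relative to it the stefin sum was lower in WT. With size factors from the median of ratios the log2 ratio in WT was -0.55, and that in CCR2 KO 1.12.

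Within a library the stefin RNA was unevenly spread over cells. The highest 10% of neutrophil-gated cells held 73.5% of the stefin UMIs in WT and 81.8% in CCR2 KO at 24 h, and 74.1% and 81.6% at 72 h. At 72 h the genotypes differed less in how many cells had a stefin UMI than in how many UMIs those cells held. At 24 h, 37.3% of the cells of WT and 30.8% of those of CCR2 KO had a stefin UMI, with means of 12.6 and 11.4 in them. Cells with at least 1 had a median of 6 in WT and 4 in CCR2 KO at 24 h, and of 6 and 14 at 72 h, with an upper quartile of 16, 12, 17 and 54. At least 100 UMIs were found in 2 cells of WT and 3 of CCR2 KO at 24 h, in 0 cells of WT at 72 h, and in 26 of 589 cells (4.41%) of CCR2 KO at 72 h. The highest cell of each library held 112, 267, 74 and 324 stefin UMIs in library order, and in none did the stefins exceed 4.49% of a cell's UMIs. Cells with a stefin UMI were deeper, with medians of 4668 against 3070 UMIs in CCR2 KO at 72 h and 2554 against 1895 in WT at 24 h.

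**Figure D4:**
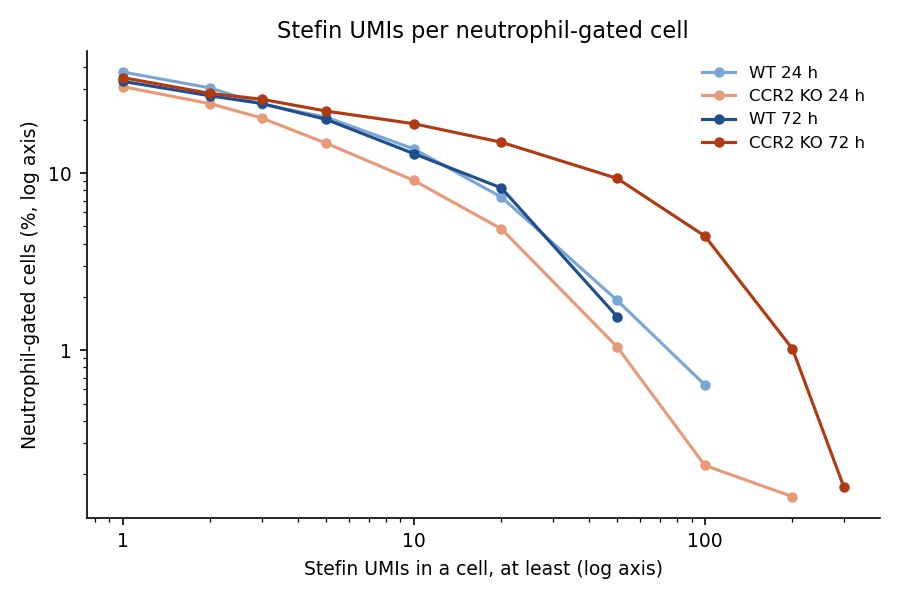
Share of neutrophil-gated cells (%, log axis) that held at least the number of stefin UMIs on the x axis (log axis), 1 line per library. The lines start close together at 1 UMI, between 30.8% and 37.3%, and separate to the right, where 4.41% of CCR2 KO cells at 72 h hold 100 or more.

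The level per cell changes the sizes of the ratios but not their signs between genotypes. When each cell counted equally (the mean of per-cell levels), the log2 ratio of CCR2 KO to WT was -0.46 at 24 h and 0.74 at 72 h. Without the highest 1% of cells it was -0.74 and 1.17. The difference at 72 h thus did not rest on the 6 highest of 589 CCR2 KO cells.

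Members were often found in the same cells. Of 2439 neutrophil-gated cells, 397 had 1 member, 340 had 2, 46 had 3, 10 had 4 and 5 had all 5. Gm5483 was found in 586 cells and Stfa2l1 in 576, with 371 cells having both, or 63.3% of the first and 64.4% of the second. Of the 93 cells with Stfa1, Stfa2 or BC100530, 86 also had Gm5483 or Stfa2l1. By library, cells with a sparse member held a median of 16, 6.5, 15 and 62.5 UMIs of that pair in library order, and cells with 1 or both of the pair and no other member 5, 4, 5 and 7. The gap was thus largest in CCR2 KO at 72 h, which supplied 40 of the 93 cells, and small in CCR2 KO at 24 h. BC100530 and Stfa2, whose coding ends belong to different pairs, shared 13 cells, of 27 and 35. The part of depth and of reads shared between similar genes in this was not tested.

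Leiden clustering without the stefin genes divided the neutrophils into 5 clusters, and the stefin level ranged over a wider span between clusters of a library than between libraries. The cluster led by Retnlg, S100a9, S100a8, Wfdc21 and Lcn2, among them genes of young neutrophils and their granules, was the highest in each library, with 2606 CPM (2446 to 2773), 2900 CPM (2754 to 3052), 4732 CPM (4282 to 5218) and 9071 CPM (8827 to 9319). The cluster led by Siglecf and Mmp9 was the lowest, at 230 CPM (74.8 to 538), 140 CPM (76.4 to 235), 215 CPM (159 to 284) and 371 CPM (337 to 408) in library order. Siglecf is also a gene of eosinophils, but Il5ra, Prg2, Ear1, Ear6 and Alox15 were at 0 UMIs in that cluster in each library, and Ccr3 had at most 2. Between the Retnlg and Siglecf clusters lay those led by the interferon-induced Rsad2 and Ifit1, by Il1f9 and Hcar2, and by Il1r2 and Ptgs2, at 700 to 5254 CPM.

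The mix of clusters differed between libraries. The Retnlg cluster made up 34.4% of neutrophil-gated cells in WT and 8.27% in CCR2 KO at 24 h, and 12.4% and 15.3% at 72 h. It held 67.6%, 31.1%, 49.9% and 64.1% of the stefin UMIs in library order. The Siglecf cluster made up 4.46% and 3.20% at 24 h and 53.6% and 62.0% at 72 h, but held only 6.06% and 5.21% of the stefin UMIs at 72 h. Stefin RNA at 72 h thus came mostly from a minority of the neutrophil-gated cells.

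Within clusters, CCR2 KO was lower at 24 h beyond counting error in 1 of 5 and higher in 1 of 5. CCR2 KO against WT gave a log2 ratio of 0.15 (0.037 to 0.27) in the Retnlg cluster, 0.038 (-0.18 to 0.26) in the interferon cluster and 0.40 (-0.10 to 0.94) in the Il1r2 cluster. The Siglecf cluster had -0.72 (-2.28 to 1.11), on 5 and 14 UMIs. Only the Il1f9 cluster was lower beyond counting error, at -1.64 (-1.90 to -1.38), and there 1 of 20 WT cells held 112 of 141 UMIs. Without the highest cell of each library this ratio was -0.055. The same step gave 1.71 in the Il1r2 cluster, where 1 of 23 WT cells held 21 of 33 UMIs, and -2.24 in the Siglecf cluster. In the Retnlg cluster it gave 0.057 and in the interferon cluster 0.046. With each cluster given the same weight in every library, the log2 ratio of the stefin sum was -0.26 at 24 h instead of -0.60. This value rested on the WT cell with 112 UMIs: without the highest cell of the Il1f9 cluster in each library it was 0.12, and without the highest cell of every cluster 0.28, so its sign turned. In the Il1f9 cluster this left out 1 of 20 WT cells but 1 of 287 CCR2 KO cells, a larger part of the smaller WT group.

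At 72 h the higher level in CCR2 KO was seen in 4 of 5 clusters beyond counting error. The log2 ratio was 0.94 (0.79 to 1.09) in the Retnlg cluster, 1.33 (1.09 to 1.57) in the interferon cluster, 1.38 (1.09 to 1.68) in the Il1f9 cluster and 0.79 (0.36 to 1.25) in the Siglecf cluster. In the Il1r2 cluster, with 12 WT and 22 CCR2 KO cells, it was -0.49 (-0.93 to -0.045), and -0.12 without the highest cell of each. With cluster weights held the same, the log2 ratio was 0.85 instead of 1.16. WT clusters at 72 h held 12 to 104 cells each. Between 24 h and 72 h the level was higher in 5 of 5 clusters of CCR2 KO and in 3 of 5 of WT, and with weights held the same the log2 ratio over time in WT was 0.80, against -0.080 with the clusters as they were. Without the highest cell of each library the ratio of the Il1f9 cluster over time in WT was 1.24 instead of -0.36, all 5 WT clusters were above 0, and with weights held the same WT was at 1.12.

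**Figure D5:**
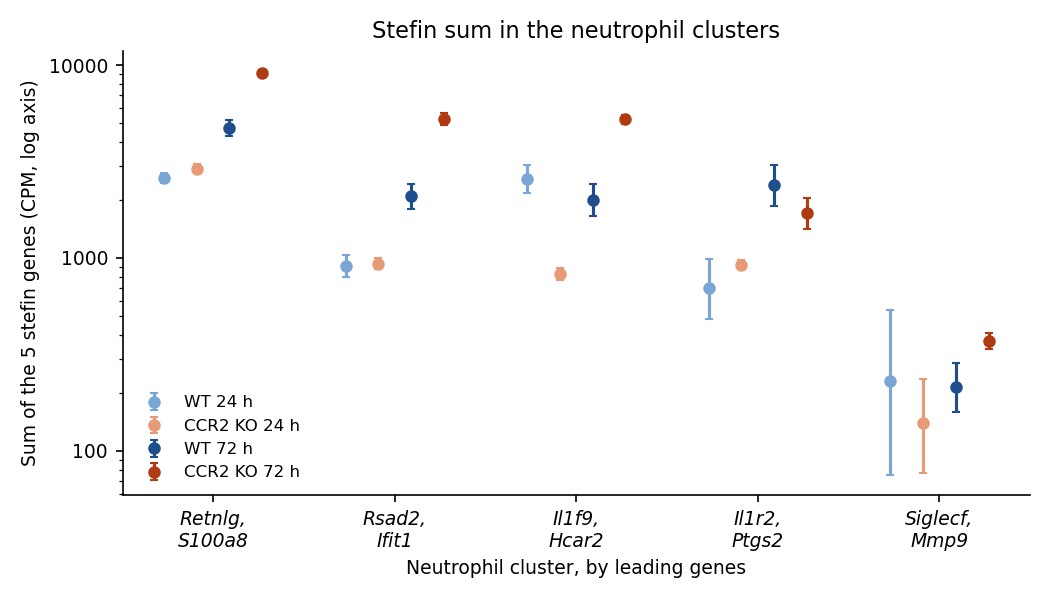
Stefin sum in CPM (log axis) in the 5 neutrophil clusters, named by leading genes, with 95% Poisson intervals and 1 point per library. The Retnlg cluster is the highest and the Siglecf cluster the lowest in each library, and at 72 h CCR2 KO lies above WT in all but the Il1r2 cluster.

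Cells were also divided, without clusters, by the number of genes of a list detected after thinning. The list of young or granule genes (Retnlg, Mmp8, Ly6g, Ltf, Camp, Ngp, Lcn2, Cd177 and Padi4) was used. In CCR2 KO at 72 h the stefin sum was at 744 CPM in the 352 cells with none of these genes, at 3578 CPM in 100 cells with 1, at 8747 CPM in 50 cells with 2 and at 8380 CPM in 56 cells with 3 or more. In WT at 72 h it was at 615, 2432, 2789 and 3076 CPM, and in CCR2 KO at 24 h at 604, 1289, 1388 and 3244 CPM. In WT at 24 h it was at 1771 CPM in 52 cells with none, against 840, 1848 and 2488 CPM. The level with 3 or more genes was above that with none in each library, but the steps between were not all upward. Other lists were not level either. With 0, 1, 2 and 3 or more interferon genes, cells of CCR2 KO at 72 h were at 2975, 3415, 8503 and 6869 CPM, those of CCR2 KO at 24 h at 952, 1487, 1058 and 933 CPM and those of WT at 72 h at 1786, 1075, 1537 and 197 CPM, the last in 2 cells. By the same interferon list, cells of WT at 24 h were at 1539, 1615, 2031 and 1950 CPM. With the stress-type list, cells of CCR2 KO at 72 h were at 5107, 3744, 2651 and 2931 CPM. Those of CCR2 KO at 24 h were instead lowest with none, at 636, 849, 1533 and 1121 CPM. By that list WT was at 2789, 1475, 1484 and 1382 CPM at 24 h and at 3792, 1037, 1612 and 1205 CPM at 72 h. Cells with more young or granule genes were also deeper, with medians of 3028 to 6383 UMIs in CCR2 KO at 72 h. With the stress-type list the medians there ran from 3689 UMIs with none to 3402 with 3 or more. Cells with a Siglecf UMI after thinning were at 309 CPM (261 to 362) in CCR2 KO at 72 h, against 4498 CPM (4400 to 4598) in those without. The same held in WT at 72 h, at 490 and 1973 CPM, and at 24 h, at 234 and 1740 CPM in WT and 601 and 1143 CPM in CCR2 KO. The 234 CPM rested on 7 UMIs in 14 cells. With a Siglecf list of 5 genes (Siglecf, Xbp1, Cd63, Ccl6 and Ltc4s) the steps were not all downward. With 0, 1, 2 and 3 or more of them, CCR2 KO at 72 h was at 3324, 4423, 3168 and 2250 CPM. WT was at 420, 2158, 1851 and 522 CPM at 72 h. At 24 h WT was at 1816, 1919, 1065 and 982 CPM and CCR2 KO at 1598, 964, 1216 and 707 CPM.

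The libraries' young or granule genes differed between genotypes beside the stefins, and their part in the stefin ratios was not tested. At 24 h, 4 of 8 tested genes were lower in CCR2 KO by a log2 ratio of 1 or more and 1 was higher, against 5.40% and 4.59% of all genes tested. At 72 h, 2 were higher and 0 lower, against 2.50% and 1.86%. Retnlg, a resistin-like secreted protein of neutrophils, was at 7052 and 995 CPM in WT and CCR2 KO at 24 h and at 2162 and 4189 CPM at 72 h. Ngp, a granule protein of the cystatin fold, was at 131 and 2.83 CPM at 24 h and at 3.96 and 29.7 CPM at 72 h. Its 3.96 CPM in WT lay below the level of 3 UMIs (5.94 CPM). Ltf, which encodes lactoferrin, ran the other way at 24 h, at 6.90 and 20.7 CPM. Of the Siglecf list (Siglecf, Xbp1, Cd63, Ccl6 and Ltc4s), 3 of 5 were higher in CCR2 KO by this fold at 24 h and 0 at 72 h, beside the same 4.59% and 2.50% of all genes. Of the stress-type list, 1 of 7 was higher at 24 h and 0 of 6 at 72 h, and of the interferon list 1 of 6 and 3 of 6. None of these 3 lists had a gene lower by that fold.

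Beside the members, 3 further genes of the cluster were in the tables. Stfa3 was at 9.19 and 2.59 CPM in neutrophil-gated cells of WT and CCR2 KO at 24 h and at 9.89 and 24.9 CPM at 72 h. Gm5416 (Csta3) was at 31.0 and 15.1 CPM at 24 h and at 19.8 and 24.9 CPM at 72 h. Each had the order of the stefin sum between genotypes at both times. At 72 h, however, the log2 ratio of Gm5416 was 0.33, with an interval that spanned 0 (-0.65 to 1.47). That of Stfa3 was 1.33 (0.026 to 3.01), on 5 UMIs in WT. 2010005H15Rik (Csta2), the near-copy of Gm5483, was at 34.5 and 17.0 CPM at 24 h and at 3.96 and 28.0 CPM at 72 h, the first of the 72 h values being 2 UMIs. Adding these 3 genes to the sum gave log2 ratios of -0.62 at 24 h and 1.16 at 72 h. In monocyte/macrophage-gated cells 2010005H15Rik had 113 UMIs in 41 cells, against 168 UMIs in 45 neutrophil-gated cells. Its level there was 4.22 and 8.52 CPM in WT and CCR2 KO at 24 h and 0.148 and 0.472 CPM at 72 h. Stfa3 had 6 UMIs and Gm5416 0 in monocyte/macrophage-gated cells.

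Other protease inhibitors were few at a level that could be compared. Of 9 stefins, cystatins and related inhibitors in the tables, 5 could be compared at 24 h, with 1 lower by a log2 ratio of 1 or more (Ngp; 5.40% of all genes) and 0 higher, at a median of -0.98 against 0.026 for all genes tested. At 72 h 3 of 6 were higher (2.50% of all genes) and 0 lower, at a median of 0.78 against -0.023, and the 3 were Stfa3, 2010005H15Rik and Ngp. Stfa3 and 2010005H15Rik are genes of the stefin A cluster. In WT at 72 h Stfa3 rested on 5 UMIs, and 2010005H15Rik and Ngp, both at 3.96 CPM, lay below 3 UMIs. Cstb, the stefin B gene, which lies outside the cluster, was at 1025 and 1970 CPM in WT and CCR2 KO at 24 h and at 756 and 911 CPM at 72 h. Cst3, the secreted cystatin C, was at 1270 and 1415 CPM, then at 2724 and 2167 CPM. Cstb thus was higher in CCR2 KO at 24 h, where the stefin A genes were lower.

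Papain-like cysteine proteases are the targets of stefins. Of 11 cathepsin and legumain genes, a list wider than these targets, 7 could be compared. At 24 h 1 was lower in CCR2 KO by a log2 ratio of 1 or more, namely Ctsh (182 and 77.9 CPM), and 0 were higher, and at 72 h 0 were past this limit. From 24 h to 72 h 3 of 7 were lower in WT and 3 of 7 in CCR2 KO, against 4.77% and 3.70% of all genes tested, with 0 higher in either, against 20.3% and 21.1%. Ctsb, the most abundant, was at 1181 and 1477 CPM in neutrophil-gated cells of WT and CCR2 KO at 24 h and at 443 and 601 CPM at 72 h. In monocyte/macrophage-gated cells it was at 3233 and 3627 CPM at 24 h. At 72 h, Ctss was at 317 and 197 CPM and Ctsl at 174 and 124 CPM.

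Across the 25 groups of cells given by class and library with at least 10 cells, the genes with the pattern most like the stefin sum were sought among 10267 genes, by Pearson's r of log2(CPM + 1). In order they were Cxcr2 (r = 0.98), the receptor for neutrophil-attracting chemokines, Steap4 (0.98), Mrgpra2b (0.97), AC110211.1 (0.97), Gm17619 (0.97), Amer2 (0.97), Asprv1 (0.97), Ly6g (0.97), the surface antigen by which mouse neutrophils are sorted, Mrgpra2a (0.97) and 9830107B12Rik (0.97). Gm5416 followed at position 12 and Stfa3 at 32, while S100a9 and S100a8 were at 41 and 49 and Csf3r at 115. The groups share libraries and the measure rests on the contrast of neutrophils with other classes. With Spearman's rho, 2 of the 10 were the same. Cxcr2 itself did not follow the stefins between libraries of neutrophils, at 1079, 1141, 865 and 806 CPM in library order, whereas Ly6g was at 73.5, 47.8, 53.4 and 150 CPM.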

How the data were processed

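The deposited files hold raw counts of UMIs per gene and cell, 1 table per library, which the authors made from 10x Genomics 3' v3 libraries with Cell Ranger 3.0.2 on GRCm38 (mm10), with at least 200 genes and at most 10% of mitochondrial UMIs required of a cell. Seurat is also named in the submitters' processing notes. No value was normalized by the authors, and the tables held 0 columns that could not be assigned to a sample. How reads shared by several genes were treated is not given in the sources used here.

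The members, gene lists and comparisons were chosen with earlier results of these data known. A cell was gated to the class with the highest share of its markers detected, given at least 3 markers and a lead of 0.1 over the next class, thresholds set after the data had been seen. Clusters came from scanpy 1.11.5 (2000 variable genes without the stefin genes, 30 components, 20 neighbours, Leiden resolution 1; leidenalg 0.10.2). UMIs were pooled per class and library. CPM have exact Poisson intervals, ratios conditional exact binomial intervals (scipy 1.17.1), and the floor for 0 is 3 UMIs. With 1 library per group no test was possible. The ratio code was tested on simulated data. Scrublet called 11 of 5811 cells, too few to have worked, so doublets remain. Named were the 5 members, the lists above, S100a8, S100a9 and Csf3r, and the 10 genes most like the sum. Sequences are from RefSeq promoters (GRCm38.p6) and GENCODE vM21 transcripts, compared with Biopython 1.88. Proteins were not analysed here, and 1 further neutrophil gene list is not reported here. Alternatives were other gates, clusters, scalings, depths and filters.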

Additional observations from a re-analysis of the deposited data

Results flagged for a closer look

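The ratio of CCR2 KO to WT in neutrophil-gated cells had opposite signs at 24 h and 72 h, with intervals of counting error that left out 0 at both times, for each of the 5 members and their sum. The difference of the log2 ratios, 72 h minus 24 h, was 1.76 for the stefin sum, 2.01 for Gm5483, 1.17 for Stfa2l1, 2.36 for Stfa1, 4.60 for BC100530 and 6.33 for Stfa2. This difference was not tested, since each group was 1 library. Thinned to 1000 UMIs, Stfa1 had the opposite sign at both times (0.29 and -0.15). The same turn of sign was seen beyond the stefins, with log2 ratios at 24 h and 72 h of -0.48 and 0.86 for S100a8, -0.68 and 0.31 for S100a9, -2.83 and 0.95 for Retnlg, -3.31 and 0.93 for Lcn2 and -5.53 and 2.91 for Ngp. Ngp in WT at 72 h lay below the level of 3 UMIs. Of the same young or granule list, Mmp8 (-1.54 and 0.25), Ly6g (-0.62 and 1.49) and Padi4 (-0.74 and 0.73) turned as well. Ltf (1.59 and 0.23) and Cd177 (0.46 and 0.93) did not, being above 0 at both times.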

How the results depend on the processing

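For each of the 4 ratios of the stefin sum, 16 alternatives were computed, and 6 of them (cells with 3 or more monocyte/macrophage markers left out, shared barcodes left out, the Siglecf cluster left out, and the cluster mix held fixed with all cells or without the highest cells) were chosen after seeing the data. CCR2 KO was below WT at 24 h in 14 (-0.76 to -0.26), but above it with the cluster mix held fixed and the highest cell left out, of the Il1f9 cluster (0.12) or of each cluster (0.28). It stayed above WT at 72 h (0.74 to 1.52), and in CCR2 KO 72 h stayed above 24 h (1.12 to 2.58), whereas the ratio over time in WT, whose interval spanned 0, took both signs (-0.55 to 1.18). At 24 h the log2 ratio was -0.73 with neutrophils from Leiden clusters, -0.44 after thinning, -0.74 without the highest 1% of cells, -0.47 without Siglecf-positive cells, -0.76 without cells holding monocyte/macrophage markers, -0.46 as the mean of per-cell levels, -0.26 with the cluster mix held fixed and -0.51 with median-of-ratios size factors. At 72 h it was 0.84 after thinning, 1.52 without Siglecf-positive cells, 1.31 without the Siglecf cluster, 0.74 as the mean of per-cell levels and 0.85 with the mix held fixed (0.89 without the highest Il1f9 cells). Over time in WT it was 0.049 under a stricter gate, 0.30 without Siglecf-positive cells, 0.66 without the Siglecf cluster, 0.082 per cell, 0.80 with the mix held fixed (1.18 without the highest Il1f9 cells, 1.12 without the highest of each cluster) and -0.55 with size factors. Over time in CCR2 KO these were 1.84, 2.29, 2.58, 1.28, 1.91 and 1.12, with 1.94 and 1.92 for the mix without those highest cells, 1.27 after thinning and 1.88 without the highest 1% of cells. The cause was not tested. Without a minimum level, 1530 genes at 24 h, 1479 at 72 h, 4680 over time in WT and 3098 over time in CCR2 KO were past the log2 ratio of 1 in the direction counted, and with 5 CPM added 81 at 72 h. Among the members, Gm5483 and BC100530 changed sign over time in WT without Siglecf-positive cells.

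No paired analysis was possible because each group was 1 library, so leaving out a replicate was not run either. Intervals cover counting error only, so differences between mice, surgeries or library preparations cannot be told apart from those between genotypes or times. WT neutrophils were few (314 and 194 cells), reads shared by similar genes limit the level of each member, and doublets were not removed.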
